A study of Homo sapiens with 4 samples.

Results

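The genes described here encode the enzymes that cut, trim and modify transfer RNAs (tRNAs), together with the inhibitor of the ribonuclease angiogenin. The list held 45 genes, taken by name, and all 45 had values among the 22031 genes of the table. They were grouped by role into 5 nuclease and inhibitor genes, 9 genes of end processing and 31 genes of base modification. Polyadenylated RNA was measured in U87 cells, an established human glioblastoma line. All 4 libraries came from cells transfected for 48 h with 50 nM of an oligonucleotide. In 2 libraries this was a mimic of tRF-3009a, a fragment of a tRNA, and in the 2 controls it was ssGL2, a single strand of a luciferase siRNA. Each group has a library numbered 1 and one numbered 2, and no label states what the number means or whether separate cultures were used. The p-values therefore measure only the spread between these libraries, which may be technical. In the main test of mimic against control, that spread includes the difference between numbers. In the main test between numbers, it includes the difference between treatments. The test used (limma) also draws each gene's variance toward that of genes of similar level. A printed standard error (SE) is therefore not the scatter of that gene alone.

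A tRNA is made as a precursor whose leader is removed by RNase P and whose trailer is cut off by RNase Z, after which TRNT1 adds the terminal CCA. Many of its bases are then methylated, deaminated, isomerised to pseudouridine, reduced to dihydrouridine or given larger groups in the anticodon loop. Angiogenin and some Schlafen proteins can cut mature tRNAs, and RNH1 binds and blocks angiogenin. Fragments of the class of tRF-3009a come from the end of the mature tRNA that carries the CCA.

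Recovered reads ran from 28860788 to 33848402 per library. Libraries of the same number were more alike (Pearson's r across genes 0.984 and 0.987) than libraries of the same treatment (0.942 and 0.941). Of the 8 glioma and glial markers 7 had values, and 4 were lower in number 2, 1 was higher and 2 did not pass (limma adjusted p under 0.05). VIM had 276546 and 249907 in number 1 (control, then mimic) and 126391 and 121239 in number 2 (log2 difference -1.09). NES (-2.27), CD44 (-1.05) and FN1 (-0.73) were also lower, and OLIG2 was higher, at 411.3 and 419.2 against 100.8 and 83.63 (2.16). GFAP and SOX2 did not pass and lay at 29.71 or lower in every library, and S100B was not analysed here. The 11 cell-cycle genes listed with the members were all lower in the number 2 libraries (median log2 difference -1.97) and the 10 ATF4 response genes were all higher (median 3.15). Both lists were chosen with earlier results of these data known. Over all genes 24.2% passed as lower and 26% as higher. The 3 neuron markers with values, led by MAP2 and SYT1, summed to 991 and 1089 in the number 1 libraries and to 3605 and 3651 in number 2. The 4 endothelial markers summed to 165.2 and 192.4 against 60.51 and 44.91, and the 3 epithelial ones to 72.77 and 72.87 against 238.7 and 214.7. Within the epithelial sum ESRP1 was higher in number 2 (200.6 and 172.7 against 13.51 and 3.597), EPCAM was lower (16.81 and 11.44 against 45.75 and 41.39) and CDH1 did not pass. Oligodendrocyte markers summed to 11.43 to 18.07. Of the immune markers, CD68 made up nearly all of the sum of 7246 to 10230, while PTPRC and CD14 stayed at 6.724 or lower. The part of these genes in the differences below was not tested.

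Promoter sequences are shown for 6 of the 31 genes that passed between numbers. TRMT6 and TRMT61A encode both subunits of 1 methyltransferase and moved in opposite directions, ANG and SLFN11 were lower in number 2, and ALKBH1 and TRMT10A were higher. Each line gives the 250 bases before the RefSeq start (GRCh38.p14), written 5′ to 3′ on the strand of the gene. Capitals mark the motifs searched.
TRMT6: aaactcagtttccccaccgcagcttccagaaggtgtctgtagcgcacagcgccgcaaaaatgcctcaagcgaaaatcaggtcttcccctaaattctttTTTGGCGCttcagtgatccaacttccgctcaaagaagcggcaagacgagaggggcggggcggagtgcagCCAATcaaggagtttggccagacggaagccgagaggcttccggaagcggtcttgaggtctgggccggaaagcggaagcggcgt
TRMT61A: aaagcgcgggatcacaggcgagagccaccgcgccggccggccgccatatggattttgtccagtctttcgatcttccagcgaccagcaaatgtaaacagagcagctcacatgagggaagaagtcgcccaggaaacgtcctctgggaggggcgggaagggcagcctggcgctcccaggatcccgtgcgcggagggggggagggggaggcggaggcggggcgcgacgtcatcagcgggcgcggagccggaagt
ANG: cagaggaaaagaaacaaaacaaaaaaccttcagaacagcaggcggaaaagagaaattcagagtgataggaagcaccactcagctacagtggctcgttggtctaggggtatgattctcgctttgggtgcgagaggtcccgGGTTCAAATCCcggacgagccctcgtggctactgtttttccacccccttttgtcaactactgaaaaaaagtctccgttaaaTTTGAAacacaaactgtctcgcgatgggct
SLFN11: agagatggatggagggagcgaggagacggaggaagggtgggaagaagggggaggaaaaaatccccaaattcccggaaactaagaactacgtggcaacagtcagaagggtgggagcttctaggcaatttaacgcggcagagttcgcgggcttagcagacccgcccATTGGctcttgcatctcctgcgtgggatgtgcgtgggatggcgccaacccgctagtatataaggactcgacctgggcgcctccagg
ALKBH1: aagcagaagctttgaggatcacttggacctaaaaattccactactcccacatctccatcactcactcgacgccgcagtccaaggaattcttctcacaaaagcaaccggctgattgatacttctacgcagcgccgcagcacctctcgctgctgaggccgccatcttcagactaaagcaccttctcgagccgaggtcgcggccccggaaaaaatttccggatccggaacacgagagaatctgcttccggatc
TRMT10A: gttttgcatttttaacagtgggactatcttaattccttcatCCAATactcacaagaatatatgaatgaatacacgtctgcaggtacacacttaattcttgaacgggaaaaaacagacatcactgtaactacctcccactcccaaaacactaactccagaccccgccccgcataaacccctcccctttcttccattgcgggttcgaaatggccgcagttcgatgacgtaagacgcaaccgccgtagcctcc
The windows lie at chr20:5950534-5950783 on the minus strand for TRMT6, at chr14:103528946-103529195 on the plus strand for TRMT61A, at chr14:20683927-20684176 on the plus strand for ANG, at chr17:35373622-35373871 on the minus strand for SLFN11, at chr14:77708024-77708273 on the minus strand for ALKBH1 and at chr4:99564040-99564289 on the minus strand for TRMT10A. Of the 45 genes, 37 matched a RefSeq promoter by symbol. Both strands were searched. CCAAT was present in 11 of the 37 windows (29.7%) and in 32% of 35116 windows of the same length. It stood in 4 of the 14 windows of genes higher in number 2 and in 6 of the 12 of genes lower there. TTTGGCGC was in the TRMT6 window alone among these genes, 152 bases before the start, and in 0.55% of all windows. CACGTG was in the QTRT1 window alone, against 6.34% of all windows. TTTGAA was in 3 windows, those of PUS3, ANG and QTRT1 (8.11%, against 13.3% of all). The letters TGATGNAA matched in 0 of the 37 windows and in 3.14% of all, the palindromic NRF1 motif in 0 and 1.03%, and TTTCGCGC in 0 and 0.439%.

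The ANG window holds a tRNA gene. The core of the B box, an element inside tRNA genes that recruits RNA polymerase III, was searched after the sequences had been seen. It matched in the ANG window 111 bases before the start, where it overlaps a TTTGAA match, and in the QTRT1 window, against 0.729% of all windows. RefSeq places the proline tRNA gene TRP-TGG3-2 at 20684016 to 20684087 of chromosome 14, whole within the ANG window. Of the 37 windows this was the only one with an annotated tRNA gene inside it, and of all 35116 windows 14 held one (0.0399%). The RNA of that tRNA was not measured here.

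Mimic and control libraries were set against each other to see whether the fragment altered the RNAs of enzymes that make, modify and cut tRNAs. None of the 45 genes passed the test (limma on log2(value + 1), Benjamini-Hochberg adjustment at 0.05 over 16535 genes), where 0% of all genes did. The median log2 difference of the 45 genes was -0.02, against -0.01 over all genes, and the range ran from -0.40 for ANG to 0.27 for TRNT1. At an unadjusted p under 0.05 there were 0 of the 45 genes and 26 of all 16535 genes. That is far below the share of 0.05 that a calibrated test would give without any difference. The spread in this test holds the difference between numbers, so 0 calls do not show that nothing changed. With the replicate number as a block, 1019 of all genes had such a p in limma. edgeR and DESeq2 on recovered reads also called 0 of the 45. With the replicate number as a block, limma called 0.708% of all genes and again 0 of the 45, and edgeR with the block called 0 as well. The median standard error over the 45 genes was 0.32 on the log2 scale, and 0.12 with the block. In the block fit the variance came wholly from its trend with level over all genes, so 0.12 does not measure single genes. TRNT1, with differences of 0.67 within number 1 and -0.12 within number 2, also had 0.12 there.

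Only 2 genes had mimic values that did not overlap the control values, 4.44% of the 45 against 12.4% of all genes. DUS1L, a dihydrouridine synthase gene, had normalized values of 1863 (control 1), 1797 (control 2), 1684 (mimic 1) and 1570 (mimic 2). Both mimic values were lower, with a log2 difference of -0.17 ± 0.20 (SE, n = 2 per group, adjusted p = 1). CTU1 (chromosome 19, 51097606 to 51108370, GRCh38), which encodes a subunit of the enzyme that thiolates the wobble uridine, had control values of 328.4 and 313.8 and mimic values of 251.8 and 301.7 (number 1, then 2). Here mimic 2 lay close to the controls, and the log2 difference was -0.22 ± 0.27 (SE, adjusted p = 1). It ran from -0.35 to -0.09 with 1 library left out.

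ANG, which encodes angiogenin, had control values of 57.21 and 13.45 and mimic values of 28.82 and 15.25 (number 1, then 2). Control 1 stood above the other 3 libraries, and the log2 difference of -0.40 ± 0.86 (SE) came from number 1, where it was -0.97, while it was 0.17 within number 2. TRNT1 had control values of 597.7 and 1150 and mimic values of 953.5 and 1055 (number 1, then 2). In this gene control 1 was the lowest library, with a log2 difference of 0.67 within number 1 and -0.12 within number 2. RNH1 had 3448 and 4792 against 2486 and 4790; mimic 1 lay below control 1 (log2 difference -0.47), and mimic 2 was level with control 2 (-0.0008). The sign was shared by both numbers for 21 of the 45 genes and differed for 24, against 8270 and 8265 of all 16535 genes. Differences above 0.25 in size were seen for 10 genes within number 1 and for 1 gene, CTU2, within number 2. Over all 16535 genes they were seen for 5719 within number 1 and 4402 within number 2.

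**Figure D1:**
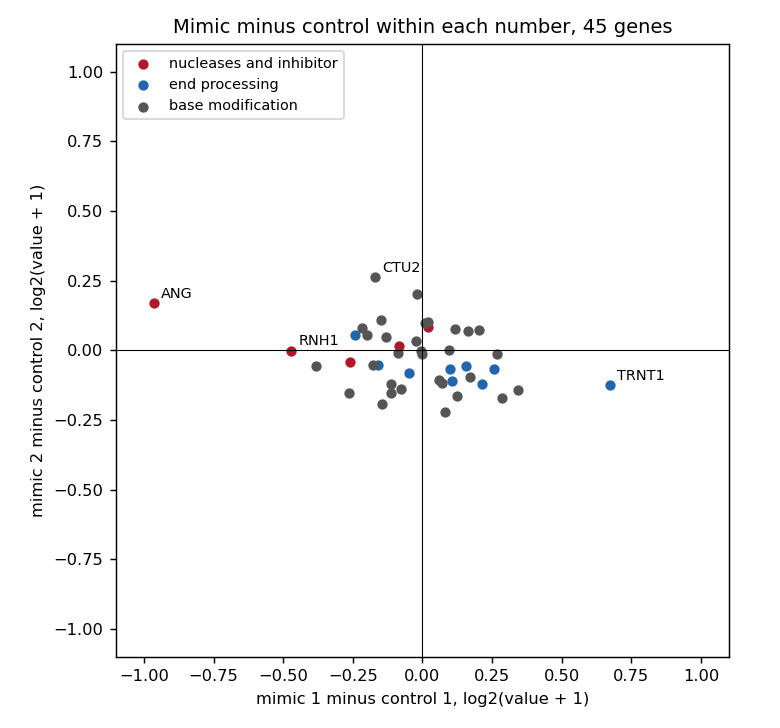
Difference of log2(value + 1) between mimic and control for the 45 genes, within number 1 on the horizontal axis and within number 2 on the vertical axis, coloured by role. Each point is 1 gene and each axis compares 1 pair of libraries. ANG at -0.97 and TRNT1 at 0.67 lie farthest out on the horizontal axis, and CTU2 at 0.26 on the vertical axis.

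The comparison of the number 2 with the number 1 libraries described where the 4 libraries differed most. It set 1 control and 1 mimic library of each number against each other. Of the 45 genes, 31 passed the limma test (68.9%), 16 higher and 15 lower in number 2, where 50.2% of all genes passed, 26% higher and 24.2% lower. Among genes with a mean of at least 50, where 44 of the 45 lay, 61.1% of all genes passed. The median log2 difference was 0.06 over the 45 genes and 0.01 over all genes. In size the median was 0.45 in both, so the genes differed between numbers about as much as others. More than 2-fold differences were seen in 4 of the 45 genes and in 19.3% of all genes. In 39 of the 45 genes the values of the numbers did not overlap, against 75.7% of all genes. Without control 2 the count fell to 15 genes and without mimic 2 to 16. In bulk RNA, fewer cells of a type and less RNA per cell cannot be told apart.

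**Figure D2:**
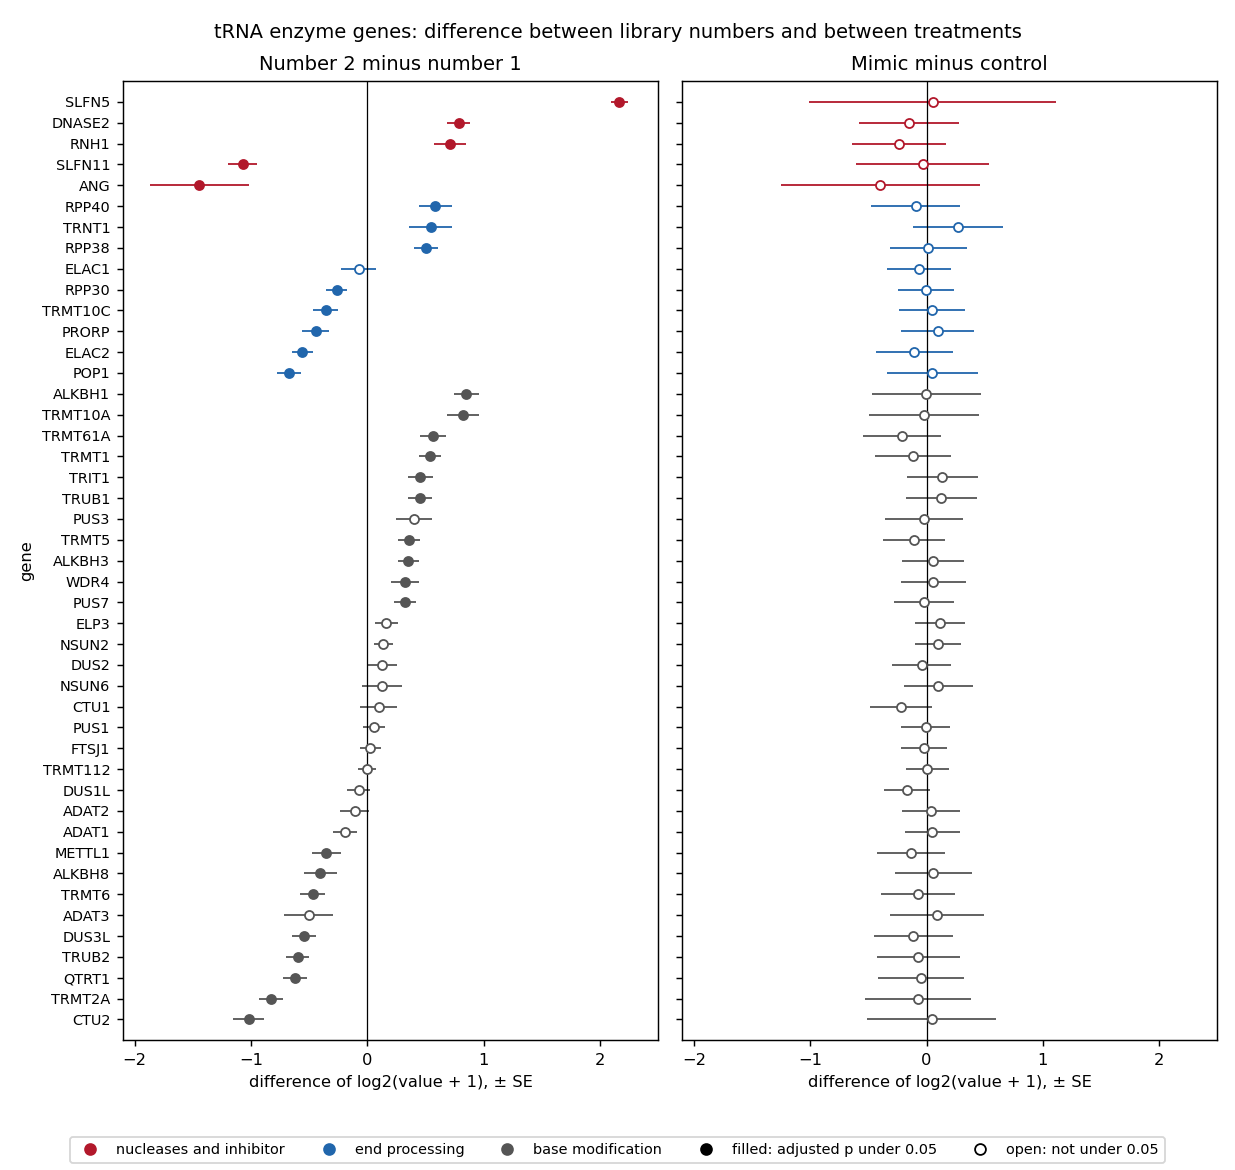
Log2 difference with its standard error for each of the 45 genes, number 2 minus number 1 on the left and mimic minus control on the right, ordered within the 3 roles. Filled points passed the test; 31 did so on the left, from ANG at -1.44 to SLFN5 at 2.17, and 0 on the right.

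The 5 nuclease and inhibitor genes all passed, 3 of them higher and 2 lower in number 2, where 50.2% of all genes passed. Among genes with a mean of at least 50, which leaves out ANG, 61.1% passed. Of the 4 differences above 2-fold, 3 were among these 5 genes, and 19.3% of all genes had one. SLFN5, a Schlafen family gene induced by interferon, had 5473 and 5548 in the number 1 libraries (control, then mimic) and 24016 and 25470 in number 2. Both number 2 values were over 4 times those of number 1, with a log2 difference of 2.17 ± 0.08 (SE, n = 2 per number, limma adjusted p = 1.3e-07). SLFN11, whose product cuts certain tRNAs under stress of DNA replication, had 525.7 and 495.5 in number 1 and 240.9 and 243.6 in number 2. Its summed value was lower in number 2, with a difference of -1.07 ± 0.12 (adjusted p = 0.000113). Its most abundant transcript alone turned the direction and did not pass (0.17, adjusted p = 0.63). Both genes lie on chromosome 17 (GRCh38), SLFN5 from 35243036 to 35273655 on the plus strand and SLFN11 from 35350305 to 35373701 on the minus strand.

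ANG was lower in number 2, at 13.45 and 15.25 against 57.21 and 28.82 in number 1. Its log2 difference was -1.44 ± 0.43 (SE, limma adjusted p = 0.0196), and it did not pass without control 1 (-0.96, adjusted p = 0.14), control 2 (-1.36, adjusted p = 0.104) or mimic 2 (-1.53, adjusted p = 0.0808). ANG (chromosome 14, 20684177 to 20698971) shares up to 582 bases of an exon with RNASE4, which had 103.9 and 82.78 in number 1 and 34.74 and 29.58 in number 2, and reads can be split between them. RNH1, the ribonuclease inhibitor gene (chromosome 11, 494512 to 507300), was higher in number 2 at 4792 and 4790 against 3448 and 2486, a difference of 0.71 ± 0.13 (adjusted p = 0.00203). DNASE2, which encodes a lysosomal nuclease, had 2185 and 1824 in number 1 and 3494 and 3395 in number 2, a difference of 0.79 ± 0.10 (adjusted p = 0.000191). Per length, RNH1 was 38.7 to 237 times as high as ANG, and that ratio was larger in both number 2 libraries.

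**Figure D3:**
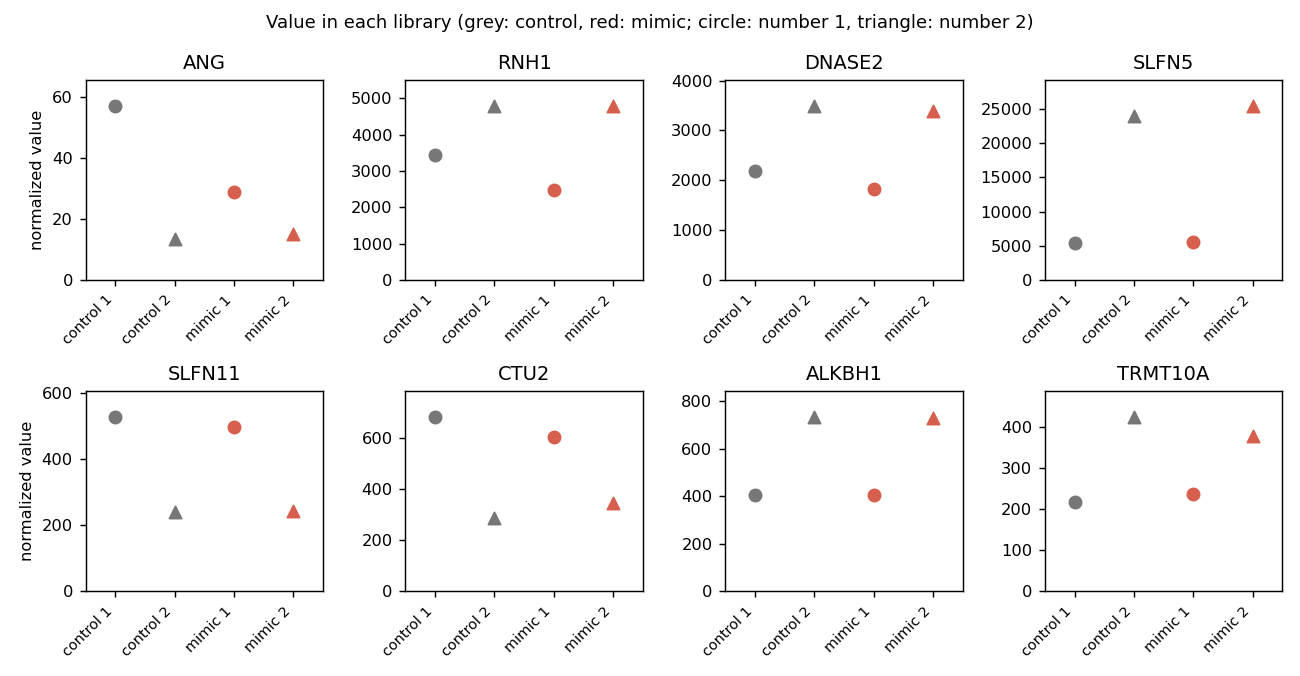
Normalized value of 8 genes in each of the 4 libraries, with every axis starting at 0. Circles are number 1 and triangles number 2; in each panel both triangles lie on the same side of both circles, while grey controls and red mimics of a number lie close together except in ANG and RNH1.

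Of the 9 end processing genes, 8 passed, 3 higher and 5 lower in number 2, and ELAC1 did not (-0.07 ± 0.15, SE). Over all genes 50.2% passed, and 61.1% of those with a mean of at least 50. The subunit genes of nuclear RNase P did not share a direction. POP1, its largest protein subunit, had 916.2 and 1020 in number 1 and 616.3 and 593.4 in number 2, a log2 difference of -0.68 ± 0.10 (limma adjusted p = 0.000628). RPP30 was lower as well, by -0.26 ± 0.09 (adjusted p = 0.0381). RPP40 had 255 and 215.3 in number 1 and 345.3 and 358.5 in number 2, a difference of 0.58 ± 0.14 (adjusted p = 0.00824), and RPP38 was higher by 0.50 ± 0.11 (adjusted p = 0.0035). RPP40 did not pass without control 2 (0.61, adjusted p = 0.0629) or mimic 2 (0.56, adjusted p = 0.085), nor RPP38 without control 2 (0.47, adjusted p = 0.0574).

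ELAC2, the long form of RNase Z that serves nucleus and mitochondria, had 2900 and 2595 in number 1 and 1896 and 1827 in number 2. Both number 2 values were lower, by -0.56 ± 0.09 (SE, limma adjusted p = 0.0007). The mitochondrial RNase P genes TRMT10C and PRORP, whose product cuts the leader, were both lower, by -0.36 ± 0.11 and -0.44 ± 0.12. PRORP shares up to 1280 bases of an exon with ENSG00000258790 on the same strand, so reads can be split between them. ENSG00000258790 had 428 and 427.9 in number 1 and 325 and 276.1 in number 2. TRNT1 was higher by 0.54 ± 0.19 (adjusted p = 0.0371), and did not pass without control 1 (0.21, adjusted p = 0.129), control 2 (0.48, adjusted p = 0.237) or mimic 2 (0.61, adjusted p = 0.15).

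Of the 31 base modification genes, 18 passed (58.1%), 10 higher and 8 lower in number 2. That share lay between the 50.2% of all genes and the 61.1% of those with a mean of at least 50. Of the 12 genes for methyltransferases and their partners, 8 passed, 5 higher and 3 lower. TRMT2A, which makes the methyluridine of the T loop, had 1226 and 1067 in number 1 and 631.1 and 656.3 in number 2. Number 2 was lower by -0.83 ± 0.11 (SE, limma adjusted p = 0.000212). TRMT2A shares up to 393 bases of an exon with RANBP1 on the opposite strand, and the use of strand in counting is not given. RANBP1 had 4502 and 5005 in number 1 and 2652 and 2427 in number 2. TRMT10A, a guanine methyltransferase, was higher at 423.6 and 378.1 against 217.2 and 236.5, a difference of 0.82 ± 0.14 (adjusted p = 0.00104). TRMT1, which dimethylates a guanine below the D arm, had 1441 and 1334 in number 1 and 2100 and 1931 in number 2, a difference of 0.54 ± 0.09 (adjusted p = 0.00104). TRMT5, which methylates the guanine beside the anticodon, was higher by 0.36 ± 0.09 (adjusted p = 0.012). TRMT112, an activator of several methyltransferases, had 3783 and 3725 against 3697 and 3787, so its values overlapped (-0.0047 ± 0.07). FTSJ1, NSUN2 and NSUN6 did not pass either, with log2 differences of 0.02, 0.14 and 0.12.

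Both genes for demethylases passed and were higher in number 2, where 50.2% of all genes passed, 26% as higher. ALKBH1, which removes methyl groups from adenine in tRNA, had 405.3 and 404 in number 1 and 731.8 and 730.1 in number 2. The libraries of a number were nearly equal, and the log2 difference was 0.85 ± 0.11 (SE, limma adjusted p = 0.000183). ALKBH3 was higher by 0.35 ± 0.09 (adjusted p = 0.00996). Of the 5 pseudouridine synthase genes 3 passed: TRUB1 (0.45 ± 0.11) and PUS7 (0.32 ± 0.09) were higher, while TRUB2, a mitochondrial synthase gene, was lower at 1098 and 1160 against 1845 and 1586 (-0.60 ± 0.10, adjusted p = 0.00104). TRUB2 shares up to 207 bases of an exon with COQ4 on the opposite strand. COQ4 had 1204 and 1033 in number 1 and 740.9 and 795.7 in number 2. PUS1 and PUS3 did not pass (0.06 and 0.40, adjusted p = 0.641 and 0.0578). Of the 3 dihydrouridine synthase genes, DUS3L passed and was lower, at 697.2 and 672.6 against 1064 and 941.1 (-0.55 ± 0.10, adjusted p = 0.00215). None of the 3 adenosine deaminase genes ADAT1, ADAT2 and ADAT3 passed, with differences of -0.19, -0.11 and -0.51 (adjusted p = 0.141, 0.49 and 0.0701). ADAT3 overlaps SCAMP4 by up to 372 bases on the same strand, so its reads can be shared.

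The 6 genes for other anticodon loop enzymes held 3 lower, 1 higher and 2 that did not pass. Over all genes 24.2% passed as lower and 26% as higher. CTU2, the partner of CTU1 in thiolation, had 682.9 and 606.4 in number 1 and 289.1 and 347.3 in number 2. It was lower by -1.02 ± 0.14 (SE, limma adjusted p = 0.00026). QTRT1, the catalytic subunit of the enzyme that places queuine at the wobble position, had 798.7 and 752.4 against 505.5 and 502.3, a difference of -0.62 ± 0.10 (adjusted p = 0.00103). ALKBH8, which completes the wobble uridine side chain, was lower by -0.40 ± 0.15 (adjusted p = 0.0443). TRIT1, which adds isopentenyl to an adenine beside the anticodon, was higher by 0.46 ± 0.11 (adjusted p = 0.00689). ELP3, the catalytic subunit of Elongator, and CTU1 had 0.16 ± 0.10 and 0.10 ± 0.16 and did not pass.

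Partner subunits were compared per length, as the log2 ratio of levels scaled by transcript length. TRMT6 and TRMT61A, which together methylate an adenine of the T loop, went apart between numbers. TRMT6 was lower in number 2 (1043 and 1103 against 836 and 716.2, log2 difference -0.47 ± 0.11, SE, limma adjusted p = 0.00587) and TRMT61A was higher (1217 and 1012 against 1727 and 1551, 0.56 ± 0.11, adjusted p = 0.00275). The level of TRMT6 was 1.19 and 1.51 times that of TRMT61A in number 1 and 0.669 and 0.641 times in number 2, so the order of the subunits turned over. TRMT6 did not pass without mimic 2 (-0.36, adjusted p = 0.091), nor TRMT61A without control 2 (0.48, adjusted p = 0.0635).

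METTL1 and WDR4, which form the methyltransferase of a guanine in the variable loop, did likewise. METTL1 was lower (512.7 and 473.6 against 406.9 and 366, -0.35 ± 0.12, limma adjusted p = 0.0392) and WDR4 higher (378.4 and 383.3 against 460.6 and 494.1, 0.32 ± 0.12, adjusted p = 0.0453). Their ratio was 1.34 and 1.32 in number 1 and 0.817 and 0.685 in number 2. QTRT1 and its partner QTRT2 showed ratios of 1.63 and 1.52 in number 1 and 0.922 and 0.833 in number 2, with QTRT2 higher by 0.29. CTU1 stood at 0.397 and 0.344 of CTU2 in number 1 and at 0.895 and 0.724 in number 2. TRMT10C and PRORP kept ratios of 1.36 to 1.54 in all 4 libraries, with no gap between numbers. The ratios were not tested.

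**Figure D4:**
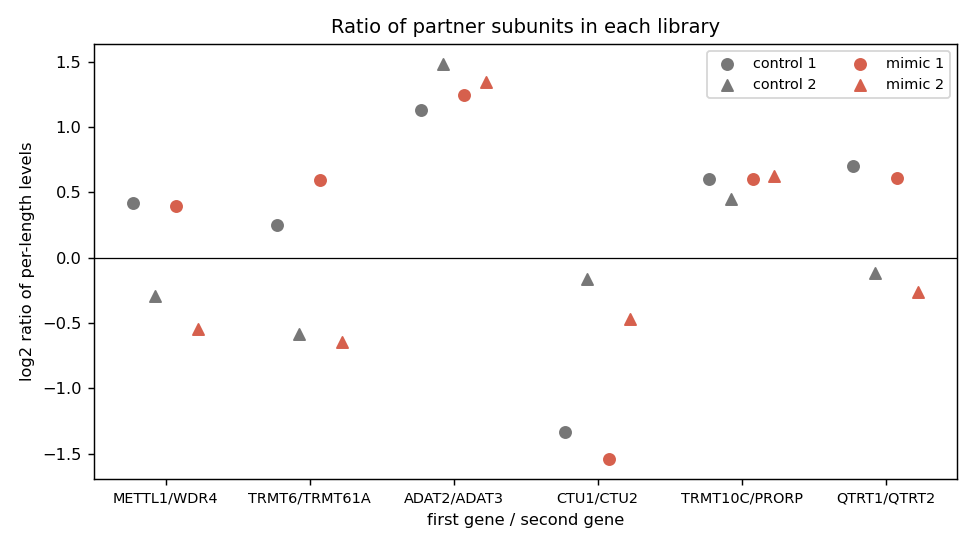
Log2 ratio of the per-length levels of 6 pairs of partner genes in each library; circles are number 1, triangles number 2, grey control and red mimic. The ratio changes sign between numbers for METTL1/WDR4, TRMT6/TRMT61A and QTRT1/QTRT2, rises toward 0 in number 2 for CTU1/CTU2, and stays between 0.45 and 0.62 for TRMT10C/PRORP.

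Levels per length, scaled so that each library summed to 1000000, ran from a mean of 1.58 for ANG to 269 for TRMT112, with a median of 27.2 over the 45 genes and 13.2 over all genes tested. After TRMT112 came RNH1 (88 to 163 over the libraries), SLFN5 (43.8 to 193) and FTSJ1 (105 to 117), whose ranges overlapped, so their order is not fixed. At the low end, SLFN11 (4.02 to 9.74), NSUN6 (5.5 to 7.23) and ALKBH8 (4.93 to 7.71) also overlapped each other, and ADAT3 (2.92 to 4.64) and ANG (0.668 to 3.07) were lowest.

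The differences were also read at the level of transcripts, of which the 45 genes had 312, with 219 tested. Between numbers 11 passed (5.02%, against 8.32% of all transcripts), 9 higher and 2 lower, from 9 genes. The fall of SLFN11 lay in 1 of its coding transcripts. SLFN11-201 had 318.9 and 262.5 in number 1 and 15.69 and 42.05 in number 2 (log2 difference -3.44 ± 0.53, SE, limma adjusted p = 0.0367). SLFN11-202 had 159.9 and 197.8 against 210.7 and 191.2, which overlapped (0.17 ± 0.21, adjusted p = 0.63), so its share of the gene was 30.4% and 39.9% in number 1 and 87.4% and 78.5% in number 2.

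For ELAC2 the transcript that passed was ELAC2-202, which was lower (1522 and 1524 against 1009 and 994.4, log2 difference -0.60, adjusted p = 0.0368). ELAC2-203 had 742.9 and 490.1 against 303.7 and 254, a larger difference that did not pass (-1.12 ± 0.26, adjusted p = 0.0801). ELAC2-201 had 342.8 and 213.1 against 377.7 and 425.2 and did not pass either (adjusted p = 0.287). Of the higher transcripts, 2 were annotated as targets of nonsense-mediated decay, a pathway that degrades RNAs with an early stop. ALKBH1-204 had 118.5 and 133.1 in number 1 and 295.9 and 330.1 in number 2 (1.31 ± 0.19, adjusted p = 0.0325). Its share of ALKBH1 was 29.2% and 33% in number 1 and 40.4% and 45.2% in number 2. TRIT1-213 had 22.88 and 36.01 against 135.6 and 149.6 (2.27 ± 0.34, adjusted p = 0.0344). The others were both main SLFN5 transcripts and 1 each of DNASE2, RNH1, RPP38, ALKBH3 and TRIT1. Estimated reads are divided among overlapping transcripts, so single transcripts are less certain than their gene.

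**Figure D5:**
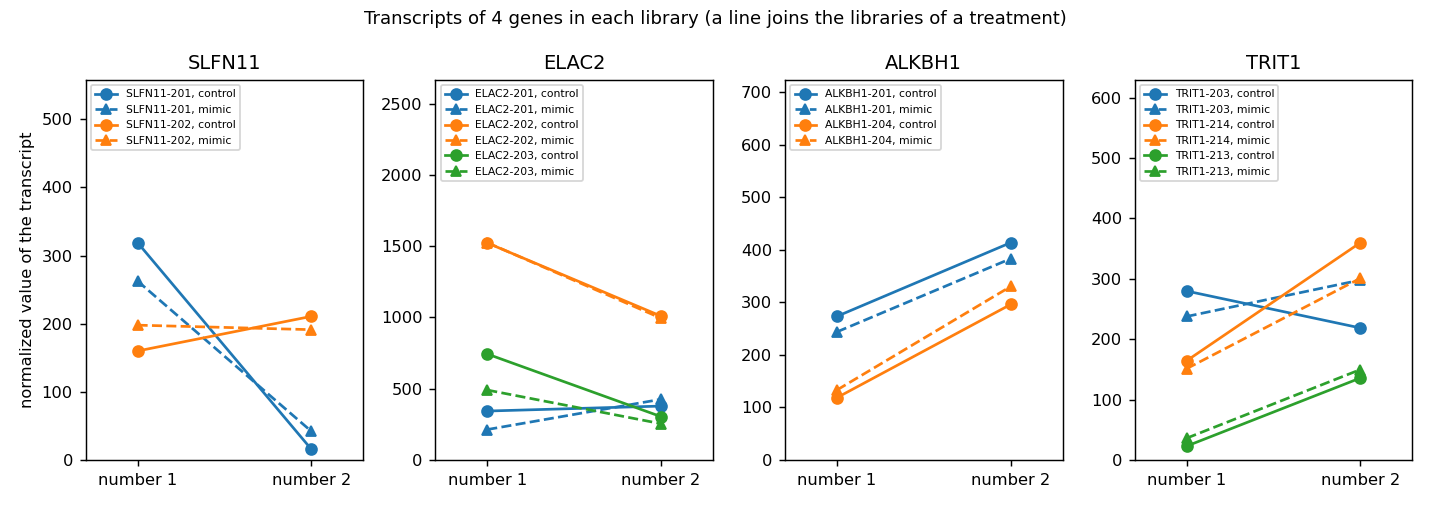
Normalized value of transcripts of SLFN11, ELAC2, ALKBH1 and TRIT1 in the number 1 and number 2 libraries, with a solid line for control and a dashed line for mimic. SLFN11-201 falls below 50 in both number 2 libraries while SLFN11-202 stays between 159.9 and 210.7, and ALKBH1-204 and TRIT1-213 are higher in both.

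Between mimic and control 0 of the 219 transcripts passed, and 5 had an unadjusted p under 0.05, against 922 of all 58500. Of these, 2 were transcripts of TRIT1 with opposite directions: TRIT1-202 was listed at 0 in both controls and at 225.8 and 98.32 in the mimic libraries, while TRIT1-205 stood at control values of 115.4 and 139 and mimic values of 17.09 and 11.45 (limma adjusted p = 1 for both). The TRIT1 totals were 645.5 and 926.9 (controls) and 743.1 and 973.9 (mimic).

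A wider list of 77 other tRNA genes was read in the same way, of which 76 had values and 75 were tested. Between numbers 42 passed (56%, against 50.2% of all genes, and 61.1% of those with a mean of at least 50), 23 higher and 19 lower, and between mimic and control 0 did. POP5, another RNase P subunit gene, had 984.7 and 865.9 in number 1 and 263.4 and 197.7 in number 2 (log2 difference -2.01 ± 0.16, SE, limma). YRDC, which starts the threonylcarbamoyl mark, had 962.5 and 946.4 against 2468 and 2186 (1.28 ± 0.09), and DTWD2, which modifies a uridine, had 322 and 353.3 against 1089 and 909.8 (1.56 ± 0.13). TSEN15, a subunit of the tRNA splicing endonuclease, was higher by 0.96, and XPOT, the tRNA exporter, by 0.52. RTCB, the ligase that joins the exons of tRNAs after splicing, was lower by -0.53. MYC, a transcription factor, had 3465 and 3423 in number 1 and 4281 and 3447 in number 2 and did not pass.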

How the data were processed

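The authors deposited 1 table of normalized signal values per Ensembl transcript for 4 libraries, and the exact normalization is not given in the sources used here. The values look like estimated reads divided by a size factor for each library, with a small factor that differs between transcripts. Per the submitters' processing notes, the tools include kallisto and DESeq2 and the build is hg38; versions and roles are not given in the sources used here. Low values were whole multiples of 1 step per library in 95.6 to 99.7% of cases (tolerance 0.1 reads), so reads could be recovered. Of 100809 transcripts, 90643 (89.9%) matched GENCODE release 29 by identifier without version and were summed to 22031 genes, and unmatched rows held 3.25 to 3.56% of the values.

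Values were tested as log2(value + 1) with limma 3.58.1 (R 4.3.3), two-sided, over 16535 genes with a mean of at least 10, and called at a Benjamini-Hochberg adjusted p under 0.05. All 45 genes passed that filter. Each variance was moderated toward a trend with level, so each limma SE is a moderated one. Each comparison used all 4 libraries, mimic against control with no replicate term, and number 2 against number 1. Fold changes on the log2(value + 1) scale understate those of low genes. Alternatives were other pseudocounts, filters and scalings, edgeR 4.0.16 and DESeq2 1.42.0 on recovered reads, single transcripts, a replicate block or treatment term, and leaving out each library.

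Genes named by rule were, for the mimic, up to 5 per direction whose groups did not overlap, and, between numbers, the 10 highest and 10 lowest that passed. Others are named by role, as partners, or after their values were seen. The members and lists were chosen with earlier results of these data known. Promoters came from RefSeq (GRCh38.p14), and the B box search and the count of tRNA genes in the windows were added after the sequences were seen. The use of strand in counting is not given in the sources used here. Of the 45 genes, 8 share exon bases with another gene on the same strand and 13 on the opposite strand.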

Additional observations from a re-analysis of the deposited data

How the results depend on the processing

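Between mimic and control, 0 of the 45 genes passed under any alternative run. Over all genes the count was 0 except with the replicate number as a block, where it was 117 (55 higher, 62 lower) in limma and 91 (39 higher, 52 lower) in edgeR, the latter chosen after seeing the data. The limma block run took each variance from the trend with level alone. Deviations from the group means correlated between libraries of the same number (r = 0.745 across all genes and 0.895 across the 45), but with 2 pairs and no label that states a pairing the block was not made the main result. Between numbers, 8301 genes passed, and 5163 to 7942 did with 1 library left out, with 5430 without control 2 and 5163 without mimic 2. Tested as single transcripts, 4865 of 58500 passed. Of the 45 genes, 31 passed in the main setting, 15 to 27 with 1 library left out, and 3 when each gene was represented by its most abundant transcript. In that last setting SLFN11 turned to 0.17 (limma adjusted p = 0.63), and of the genes named by rule only SLFN5, ELAC2 and DNASE2 passed. Among the values between numbers of the genes named by rule, 182 of 199 kept their direction and their side of the threshold under other settings (16 no longer passed and SLFN11 turned), and 69 of 80 did with a library left out. All of the changes under other settings came with the most abundant transcript, and the remaining settings moved none. The median standard error between mimic and control was 0.32 on the log2 scale, and ANG, at 13.45 to 57.21, had the fewest reads of the 45 genes.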

Other observations

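Shares of transcript classes were also read by number. Over the 45 genes, transcripts annotated for nonsense-mediated decay held 2.37% and 2.4% of the summed values in the number 1 libraries (control, then mimic) and 2.54% and 2.51% in number 2. Without SLFN5, transcripts of that class held 2.65% and 2.69% in number 1 and 3.77% and 3.82% in number 2. Over all genes the shares were 2.34% and 2.42% against 2.61% and 2.69%. Also without SLFN5, transcripts with a retained intron held 4.51% and 4.26% in number 1 and 3.67% and 2.98% in number 2, against 2.81% and 2.85%, then 2.7% and 2.78%, over all genes. These shares were not tested, and they were chosen after their values were seen.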
